A study of Mus musculus with 20 samples.

Results

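The genes described are 8 taken as markers of glutamatergic neurons of the thalamus and other subcortical regions: Slc17a6, Gbx2, Ntng1, Shox2, Tcf7l2, Lef1, Prkcd and Rgs16. In RNA of brain tissue their transcripts can also come from other cells. The 8 genes were chosen by name, with earlier results of the same 20 libraries known, out of 23845 genes in the deposited tables. All 8 were among the 16063 genes that passed the filter on low counts. Because the choice rested on measured values of these libraries, the levels and differences of the 8 genes are given as a description, and the calls on them support nothing beyond it.

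RNA from mouse brain was sequenced in 7 groups. J17b had 2 libraries, and J1 lf/lf and J2 lf/lf had 3 each, as had J17a, J27a, J27b and Wild type. Every group carries the strain label C57/Bl6J, and the series describes mice lacking single isoforms, with their controls, kept on a normal diet. No label gives the age of the mice, spells out a group code, or says if the exon form in a code is the one lost or the one kept. The study is about isoforms of JNK, a family of kinases activated by stress. Mapk8 encodes JNK1 and Mapk9 encodes JNK2, and their transcripts use either exon 7a or exon 7b. No label ties each library to its own animal, so p-values measure the spread between these samples, which may be technical.

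Neurons of the thalamus relay signals to the cerebral cortex, and most of them load glutamate into vesicles with VGLUT2, the product of Slc17a6. Cortical pyramidal neurons mostly use VGLUT1 (Slc17a7) instead. During development Gbx2, Shox2 and the Wnt effectors Tcf7l2 and Lef1, all DNA-binding proteins, are active in the thalamus, and Tcf7l2 stays on in the adult thalamus. In RNA of brain tissue, fewer cells of a type, less RNA per cell and less of a region in the sampled piece cannot be told apart.

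Promoter windows are shown for the genes of the transcription factors that varied most between libraries, Gbx2, Shox2 and Tcf7l2, since the genes varied together across libraries. Each runs 5′ to 3′ over 300 bases, with 250 bases before the annotated start in lower case and the 50 bases from the start in capitals (RefSeq, GRCm38.p6). The Gbx2 window lies at chr1:89931127-89931426 on the minus strand, that of Shox2 at chr3:66981722-66982021 on the minus strand, and the first of Tcf7l2 at chr19:55741560-55741859 on the plus strand.
Gbx2: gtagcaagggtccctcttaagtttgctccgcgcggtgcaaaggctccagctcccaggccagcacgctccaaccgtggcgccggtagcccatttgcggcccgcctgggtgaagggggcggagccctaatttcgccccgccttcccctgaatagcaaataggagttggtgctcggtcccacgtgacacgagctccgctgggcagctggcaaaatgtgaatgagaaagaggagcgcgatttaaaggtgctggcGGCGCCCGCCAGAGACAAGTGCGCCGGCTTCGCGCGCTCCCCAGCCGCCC
Shox2: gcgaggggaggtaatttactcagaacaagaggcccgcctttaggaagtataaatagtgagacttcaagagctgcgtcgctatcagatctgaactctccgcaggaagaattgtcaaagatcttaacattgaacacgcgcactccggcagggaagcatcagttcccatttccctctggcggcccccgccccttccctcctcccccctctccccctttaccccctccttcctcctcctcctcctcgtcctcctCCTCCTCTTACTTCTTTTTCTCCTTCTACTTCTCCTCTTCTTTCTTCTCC
Tcf7l2: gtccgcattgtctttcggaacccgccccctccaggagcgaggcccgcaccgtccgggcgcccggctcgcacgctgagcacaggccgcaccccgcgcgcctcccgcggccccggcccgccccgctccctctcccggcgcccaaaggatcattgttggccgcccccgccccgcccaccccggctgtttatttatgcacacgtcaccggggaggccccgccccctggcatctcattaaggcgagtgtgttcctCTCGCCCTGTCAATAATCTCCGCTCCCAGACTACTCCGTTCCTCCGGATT
The GC content was 64.7% in the Gbx2 window, 53.3% in that of Shox2 and 70% in that of Tcf7l2, against a median of 52.7% over all windows. The 8 genes had 14 such windows in the table. These were searched on both strands for CTTTGAT, the core bound by the TCF/LEF factors that Tcf7l2 and Lef1 belong to, and for TGANTCA, the core of AP-1, whose Jun subunit JNK phosphorylates. A TCF/LEF core can overlap an AP-1 core by the letters they share, and neither occurred in any of the 14 windows. Of 32851 promoter windows of the same length, 3.73% held the TCF/LEF core and 7.81% the AP-1 core. The search covers only these letters in these windows.

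Library totals ran from 21395041 to 33828755 estimated counts. Levels are given as CPM, counts relative to the library total (TMM-scaled), or as TPM, the abundance per transcript length that the authors deposited. Neuronal, astrocyte, oligodendrocyte and microglial markers were present in all 20 libraries, as the brain label implies (Snap25 at 2768 to 3679 TPM). Of the JNK genes, Mapk8 averaged 76.9 ± 3.21 CPM in J17b (SD, n = 2) and 114 ± 10.4 CPM in J1 lf/lf, against 122 ± 16.2 CPM in Wild type (SD, n = 3 each). Mapk9 stood at 177.1, 171.3 and 58.1 CPM in J2 lf/lf libraries, against 319 ± 36.3 CPM in Wild type (SD, n = 3). It averaged 299 ± 6.73 CPM in J27a and 276 ± 2.09 CPM in J27b. Of the libraries, 3 stood apart by anterior pituitary transcripts, with a summed 3135 CPM in J1 lf/lf replicate 3, 664 CPM in J27a replicate 3 and 2109 CPM in Wild type replicate 2, where the median library had 4.19 CPM. J2 lf/lf replicate 2 followed with 104 CPM. Olfactory bulb genes summed to 96.2 and 55.6 CPM in J1 lf/lf replicates 2 and 3, against 15.1 CPM in the median library. The ribosomal precursor Rn45s averaged 25461 CPM in J27a and 18987 CPM in J27b, against 4909 CPM in Wild type. It averaged 39049 CPM in J17b, 14057 CPM in J17a, 6268 CPM in J2 lf/lf and 3982 CPM in J1 lf/lf. J17a was split, with 6560 CPM in replicate 1, and 18290 and 17321 CPM in replicates 2 and 3. By the number in the sample titles, those up to 10 had 3066 to 6718 CPM and those from 11 on 17321 to 54698 CPM. Wild type lies before this step and both J27 lines after it, and its cause was not tested.

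Per length of transcript, Slc17a6 and Prkcd were the most abundant of the 8 genes and Gbx2 the least. The mean over 20 libraries was 76.5 TPM for Slc17a6, 68.0 TPM for Prkcd, 27.9 TPM for Ntng1 and 25.9 TPM for Tcf7l2. Rgs16 followed with 22.9 TPM, Shox2 with 16.2 TPM, Lef1 with 8.36 TPM and Gbx2 with 5.07 TPM. The cortical transporter gene Slc17a7 had a median of 823 TPM, so transcripts of the VGLUT2 gene were the minor fraction of the pair in these brains (median 76.5 TPM). The counts behind the values ran from 2382 to 5679 for Slc17a6 but from 44 to 265 for Gbx2. At its lowest count, Gbx2 has a counting error of 15.1%, against 2.05% for Slc17a6, and these errors cover counting only.

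Slc17a6, the vesicular glutamate transporter gene (chromosome 7, 51622006 to 51671119, mm10), had 106.4, 109.6 and 96.8 CPM in J27a libraries, against 171.2, 162.4 and 175.2 CPM in J27b libraries. The Wild type libraries, at 125.9, 79.5 and 225.1 CPM, held both the lowest and the highest of all 20 values. The order of group means ran down from J27b (169.6 CPM) through Wild type (143.5 CPM), J1 lf/lf (143.4 CPM), J17b (133.8 CPM), J2 lf/lf (125.4 CPM) and J17a (120.7 CPM) to J27a (104.3 CPM). Of neighbours in that order, J1 lf/lf and J17b did not overlap, while every other pair of neighbours did. Over the libraries of J1 lf/lf the range was 136.4 to 149.4 CPM, in J2 lf/lf 107.7 to 138.5 CPM, in J17a 90.4 to 137.3 CPM, and in J17b 132.9 to 134.7 CPM.

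Ntng1, which encodes the axonal membrane protein netrin-G1 found on thalamocortical axons (chromosome 3, 109780040 to 110144011), showed the same arrangement of the J27 lines. It had 44.9, 50.8 and 53.6 CPM in J27a, against 72.7, 74.0 and 76.9 CPM in J27b. Wild type libraries lay at 64.9, 42.3 and 91.5 CPM, again on both sides of the J27 lines. Group means ran from 74.5 ± 2.15 CPM in J27b and 66.2 ± 24.6 CPM in Wild type (SD, n = 3 each) down to 47.5 ± 8.68 CPM in J17a, and all neighbours in the order overlapped.

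Gbx2, a homeobox transcription factor gene needed for thalamic development (chromosome 1, 89927956 to 89931179), set J27b apart from the other groups. It had 2.08, 2.91 and 2.03 CPM in J27a libraries, against 7.99, 8.88 and 8.94 CPM in J27b libraries. Wild type libraries had 4.74, 3.02 and 3.69 CPM. The J27b libraries were the highest 3 of the 20, above J2 lf/lf replicate 2 at 7.43 CPM, and the rest of the J2 lf/lf group had 2.73 and 3.87 CPM. J1 lf/lf libraries had 2.22, 3.29 and 2.89 CPM, J17a libraries 3.99, 2.67 and 2.33 CPM, and J17b libraries 1.94 and 3.44 CPM. In the order of group means, J27b (8.60 ± 0.530 CPM, SD, n = 3) did not overlap the next group, J2 lf/lf (4.68 ± 2.45 CPM, SD, n = 3), and all lower neighbours overlapped down to J27a (2.34 ± 0.493 CPM, SD, n = 3). The mean was 225.5% of Wild type in J27b and 61.4% of Wild type in J27a.

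Shox2, a homeobox gene active in part of the thalamus (chromosome 3, 66971727 to 66981771), had 12.2, 13 and 12.96 CPM in J27a, against 20.3, 23.7 and 21.7 CPM in J27b. Wild type values were 15.6, 5.76 and 21.7 CPM, the middle one the lowest of all libraries. J27b was the highest group, at 21.9 ± 1.72 CPM (SD, n = 3), and did not overlap J2 lf/lf below it (16.1 ± 4.83 CPM, SD, n = 3), but it did overlap Wild type. Tcf7l2, an HMG-box effector of Wnt signalling (chromosome 19, 55741820 to 55933654), had 37.2, 28.5 and 29.8 CPM in J27a, against 63.7, 52.3 and 54.2 CPM in J27b. It had 38.9, 24.6 and 56.1 CPM in Wild type, so that J27b again overlapped Wild type. The lowest group mean was 27.6 ± 5.62 CPM in J17a (SD, n = 3), and all neighbours overlapped.

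Lef1, the second Wnt effector (chromosome 3, 131110471 to 131224356), varied least of the 4 transcription factor genes. It had 11.7, 8.73 and 9.75 CPM in J27a, against 12.04, 14.5 and 16.8 CPM in J27b, and the nearest values of these groups nearly met. Wild type libraries had 12.1, 7.80 and 14.7 CPM. The highest group was J2 lf/lf at 14.7 ± 2.85 CPM (SD, n = 3), with J27b next at 14.4 ± 2.38 CPM (SD, n = 3).

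Of the signalling genes, Prkcd encodes protein kinase C delta, abundant in thalamic relay nuclei (chromosome 14, 30595354 to 30626210). It had 60.7, 65.9 and 66.2 CPM in J27a, against 78.5, 107.9 and 106.5 CPM in J27b. Wild type libraries had 94.4, 55.2 and 111.1 CPM, so the spread of Wild type covered both lines. The lowest group mean was that of J1 lf/lf at 58.9 ± 21.2 CPM (SD, n = 3), in which replicate 1 had the lowest value of all libraries at 35.4 CPM. Prkcd lies 2.75 Mb from Mapk8 on the same chromosome, and an effect of position was not tested. The Prkcd mean was 67.4 ± 31.6 CPM in J17a (SD, n = 3) and 60.8 ± 23.3 CPM in J17b (SD, n = 2). It was 64.3 ± 3.10 CPM in J27a, 97.6 ± 16.6 CPM in J27b and 86.9 ± 28.7 CPM in Wild type (SD, n = 3 each). Rgs16 encodes a protein that shortens G protein signals (chromosome 1, 153740349 to 153745468). It had 15.5, 18.1 and 17.9 CPM in J27a, against 23.4, 24.7 and 24.1 CPM in J27b, and 27.2, 15.8 and 21.9 CPM in Wild type. The highest Rgs16 value was 31.6 CPM in J2 lf/lf replicate 2, and that group's mean of 24.3 ± 6.84 CPM stood just above the 24.0 ± 0.668 CPM of J27b (SD, n = 3 each).

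**Figure D1:**
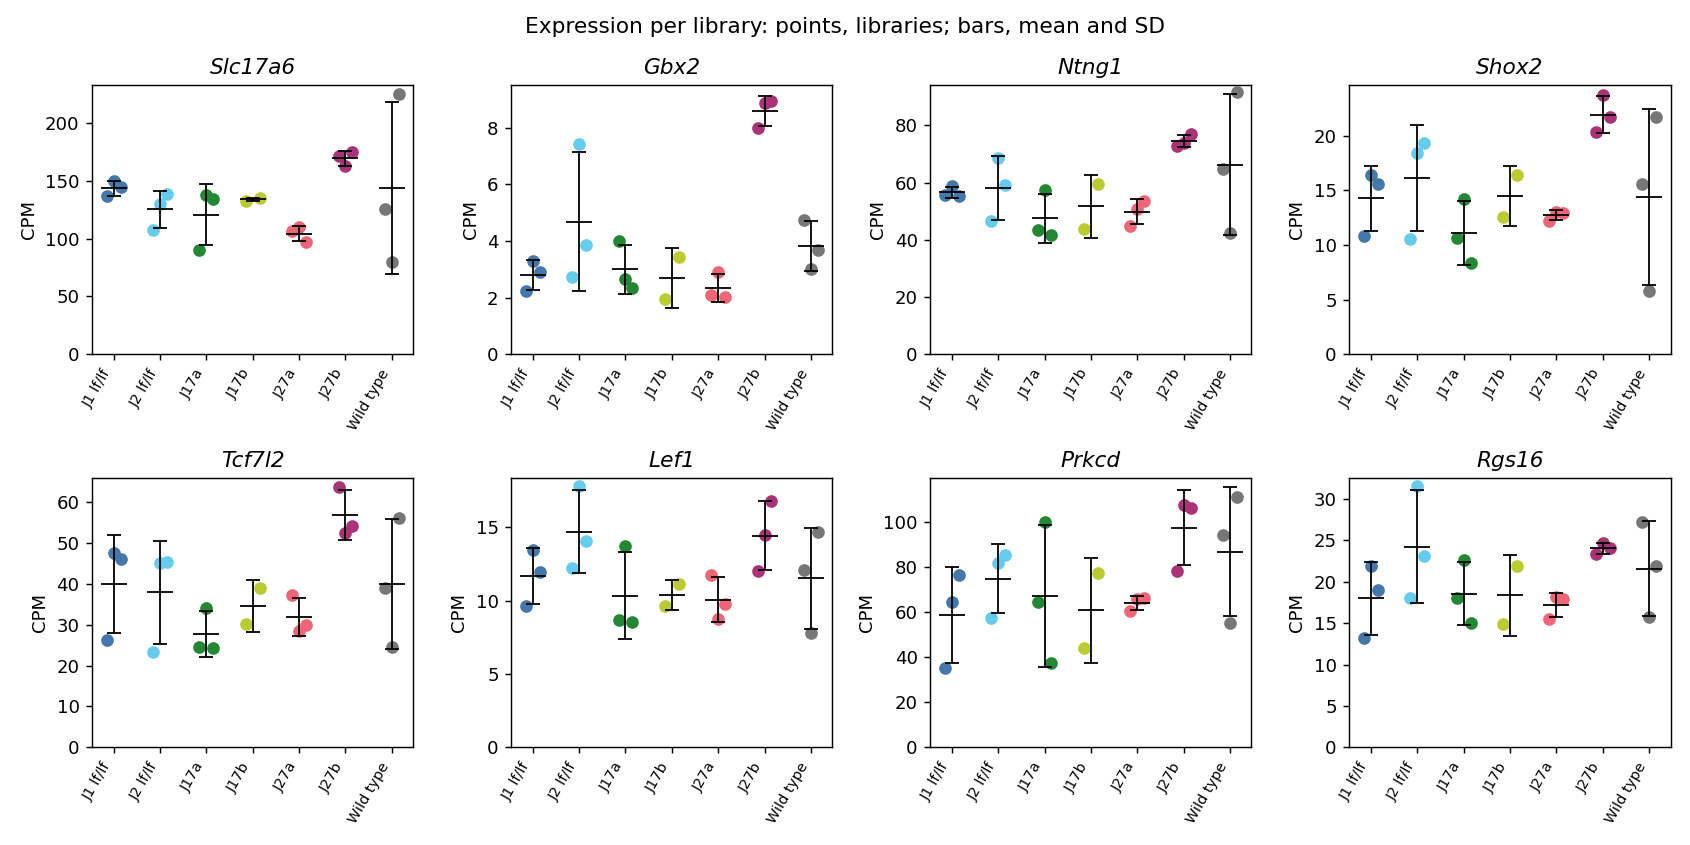
CPM of each of the 8 genes (vertical axes, from 0) in the 6 lines and Wild type (horizontal axes), with a point per library and bars for the mean and SD. The J27a points lie below the J27b points in every panel, and for Gbx2 the J27b points at 7.99 to 8.94 CPM lie above all others, while Wild type points are widely spread for Slc17a6 (79.5 to 225.1 CPM).

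J27a was set against J27b, a pair of lines whose codes differ only in the exon form, as do those of J17a and J17b, described below. Every J27a library lay below every J27b library for 8 of the 8 genes, an arrangement that 8.82% of all tested genes had in that direction. The log2 fold changes of J27a over J27b ran from -1.88 to -0.48 with a median of -0.65, against a median of -0.0012 over all tested genes. Gbx2 had the largest difference in size (log2 fold change -1.88, SE 0.304, 95% interval -2.51 to -1.24). Tcf7l2 followed at -0.83 (SE 0.308), Shox2 at -0.79 (SE 0.349) and Slc17a6 at -0.70 (SE 0.263). For Prkcd, Ntng1, Lef1 and Rgs16 the values were -0.60, -0.58, -0.52 and -0.48, and the 95% interval of Prkcd reached 0.19. Since the genes were chosen on these libraries, nothing is read from the count or the median.

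Adjusted p-values are corrected over all tested genes by Benjamini-Hochberg. None of the 8 genes passed the adjusted threshold of 0.05 in the fit with all 20 libraries, in which edgeR called 0 of 16063 genes (0%) for J27a against J27b. At an unadjusted p under 0.05 there were 930 genes (5.79%), 7 of the 8 genes among them, all but Prkcd. The edgeR adjusted p of Gbx2 was 0.0656. The DESeq2 Wald test called 1 gene, Gbx2 (adjusted p = 1.88e-05), edgeR without the filter on low counts also called Gbx2 alone (adjusted p = 0.0434), and limma on log2 TPM called 0. Over the alternatives that left out a library of these groups, the edgeR adjusted p of Gbx2 ran from 0.201 to 0.797, with log2 fold changes from -2.06 to -1.79. Without the 3 libraries of highest pituitary transcripts, among them J27a replicate 3, the median of the 8 genes was -0.64 and that of Gbx2 -1.79 (edgeR adjusted p = 0.777).

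With only the J27a and J27b libraries in the fit, edgeR called 125 of 15169 genes (0.824%), 6 of the 8 genes among them. Those 6 were Slc17a6 (adjusted p = 7.16e-06), Gbx2 (7.10e-05), Ntng1 (0.000817), Shox2 (0.00141), Tcf7l2 (0.0102) and Rgs16 (0.0168), while Prkcd and Lef1 had adjusted p of 0.106 and 0.115. The fold changes hardly moved, and the dispersion, edgeR's measure of the spread between libraries of a group, did. For Shox2 it was 0.00659 in the J27 lines alone and 0.0858 over all groups, and for Slc17a6 it was 0.0031 and 0.0489. In these genes the libraries of J27a and of J27b lay closer together than the estimate over all groups. This was not particular to the 8 genes, though it was compared only in them and in the further thalamic genes described below. Of the latter, Tnnt1 had 0.0453 in the J27 lines alone and 0.153 over all groups, and Rora 0.00363 and 0.0183. Calb2 hardly differed (0.0324 and 0.0333), and Zic1 went the other way (0.0562 and 0.0513).

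**Figure D2:**
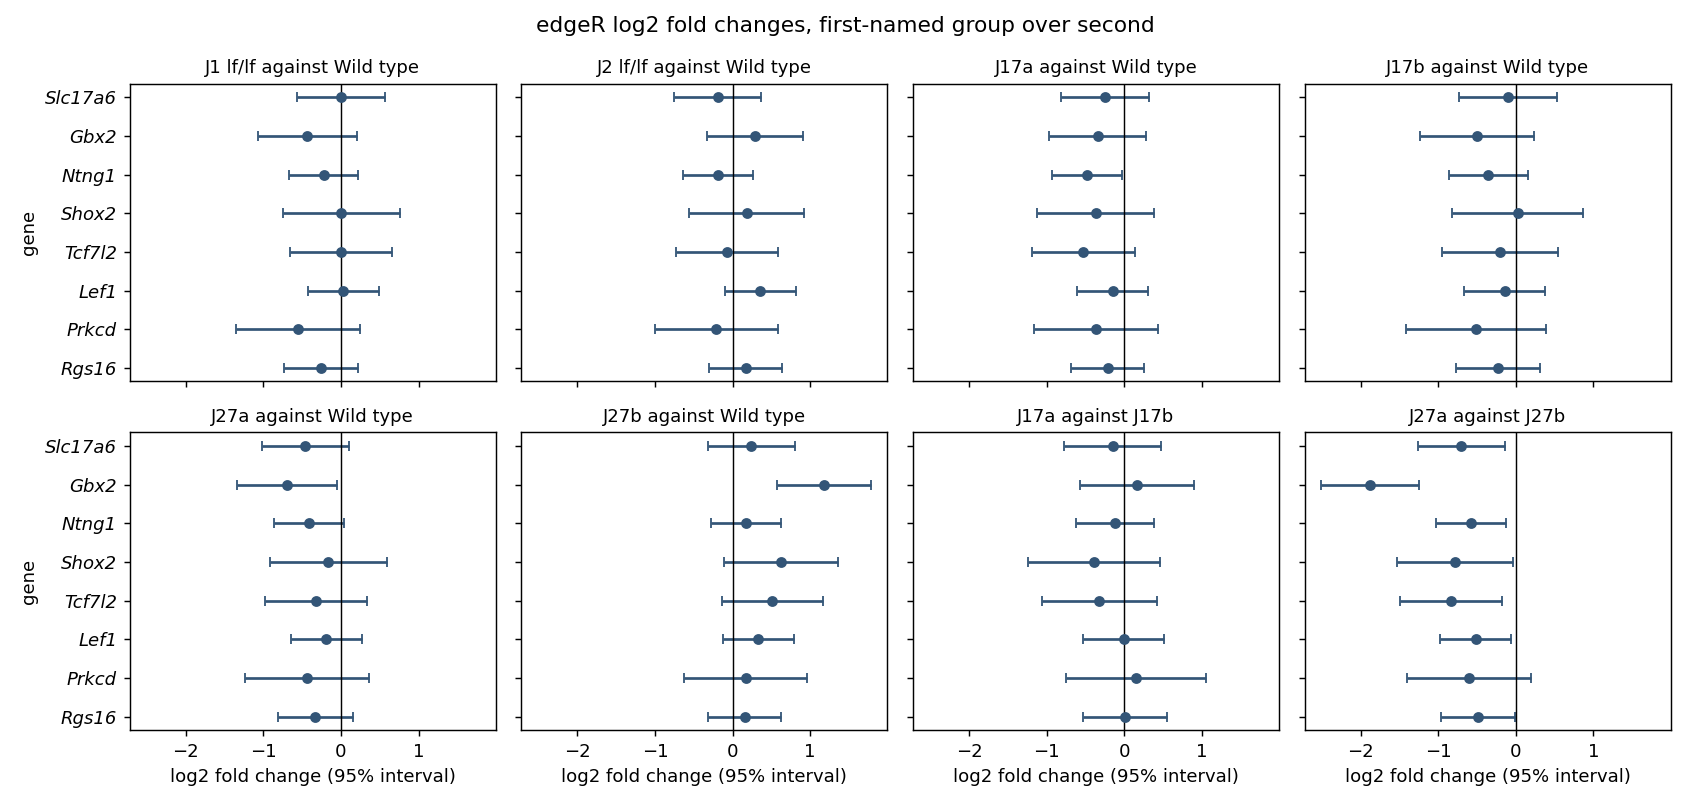
Log2 fold changes of the 8 genes with 95% intervals (horizontal axes) from the edgeR fit of all 20 libraries, in a panel per comparison, the first-named group over the second. All 8 points are below 0 for J27a against J27b (Gbx2 at -1.88), and the intervals of J17a against J17b all include 0.

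Against Wild type, the lines share the same 3 Wild type libraries, so their values are given side by side. For J27a the 8 log2 fold changes ran from -0.70 to -0.16 (median -0.37), and for J27b from 0.16 to 1.17 (median 0.29). Gbx2 was at -0.70 (SE 0.310) in J27a and at 1.17 (SE 0.290) in J27b over Wild type. Every J27b library lay above every Wild type library for Gbx2 but for none of the other 7 genes, and 6.01% of all tested genes had that arrangement. Every J27a library lay below every Wild type library for Gbx2 alone as well, and 3.85% of all tested genes had that arrangement. The edgeR fit called 0 of 16063 genes (0%) in each of these 2 comparisons, with 777 genes at an unadjusted p under 0.05 for J27a and 1114 for J27b. The edgeR adjusted p of Gbx2 was 0.959 for J27a and 0.647 for J27b. DESeq2 called 5 genes for J27a and 7 for J27b, none of the 8 among them, and limma on log2 TPM called 0 in both. The median for J27b over Wild type was 0.042 without Wild type replicate 2 and 0.633 without Wild type replicate 3, and that for J27a was -0.61 and -0.05 without the same libraries. Without the libraries of highest pituitary transcripts, Wild type replicate 2 among them, the median was -0.63 for J27a and 0.04 for J27b.

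In J17a the log2 fold changes over Wild type ran from -0.52 (Tcf7l2) to -0.15 (Lef1), with a median of -0.35, and Ntng1 was at -0.48 (SE 0.212). In J17b they ran from -0.51 (Prkcd) to 0.02 (Shox2), with a median of -0.22. The edgeR fit called 0 genes (0%) for J17a, with 705 at an unadjusted p under 0.05, where DESeq2 called 1 gene and limma 0. For J17b it called 4 genes (0.0249%), none of them among the 8. Both medians moved with single libraries. For J17a the median was -0.57 without Wild type replicate 2, -0.16 without Wild type replicate 3 and -0.20 without J17a replicate 3. For J17b it was -0.44 and 0.01 without the same Wild type libraries, -0.07 without J17b replicate 1 and -0.47 without J17b replicate 2. Without the libraries of highest pituitary transcripts the medians were -0.57 in J17a and -0.44 in J17b. J17a over J17b had a median of -0.06, with values from -0.39 (Shox2) to 0.16 (Gbx2), and edgeR called 0 genes (0%) there, with 948 at an unadjusted p under 0.05, where DESeq2 called 10 genes, none of them among the 8, and limma 0. That median ran from -0.26 without J17a replicate 2 to 0.11 without J17b replicate 2, and it was -0.02 and 0.04 without J17a replicates 1 and 3 and -0.21 without J17b replicate 1. The difference between the 7a minus 7b differences of the J27 and J17 lines was -2.04 on the log2 scale for Gbx2 (edgeR adjusted p = 0.321), so the lines were not shown to differ in this respect.

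In J1 lf/lf the log2 fold changes over Wild type ran from -0.56 (Prkcd) to 0.03 (Lef1), with a median of -0.11, and edgeR called 2 genes (0.0125%), neither among the 8. The median was -0.45 without the libraries of highest pituitary transcripts. It was -0.41 without Wild type replicate 2 and 0.16 without Wild type replicate 3, and -0.07 without Wild type replicate 1. Without J1 lf/lf replicates 1 and 2 in turn it was -0.02 and -0.20. In J2 lf/lf they ran from -0.21 (Prkcd) to 0.36 (Lef1), with a median of 0.05, and edgeR called 1 gene (0.00623%), not among the 8. The median was -0.26 without Wild type replicate 2 and 0.26 without Wild type replicate 3, and 0.08 without Wild type replicate 1. It was 0.26, -0.20 and -0.09 without J2 lf/lf replicates 1, 2 and 3 in turn, and -0.26 without the libraries of highest pituitary transcripts.

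Variation between libraries of the same group was large for these genes. The SD of log2 CPM within groups ran from 0.284 (Ntng1) to 0.482 (Shox2), against a median of 0.166 over all tested genes. Over all 20 libraries it ran from 0.321 (Ntng1) to 0.699 (Gbx2), against 0.168. Differences between groups held 76.2% of the variation of Gbx2 and 32.8% to 46.9% of that of the others, against a median of 31.9% over all tested genes. The highest value was 2.2 times the lowest for Ntng1 and 4.61 times the lowest for Gbx2.

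The 8 genes went up and down together from library to library. As the mean difference from each gene's own average, in log2 CPM, Wild type replicate 2 stood at -0.56, with all 8 genes below their average, and Wild type replicate 3 at 0.48, with all 8 above. J17a replicate 3 was next lowest at -0.51, and J1 lf/lf replicate 1 stood at -0.42, with 7 of 8 genes below. J27b libraries stood at 0.46, 0.56 and 0.59, with all 8 genes above in each, whereas J27a libraries stood at -0.27, -0.23 and -0.28. The Wild type libraries thus spanned nearly the range of all libraries, while J27a and J27b each filled a narrow part of it.

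**Figure D3:**
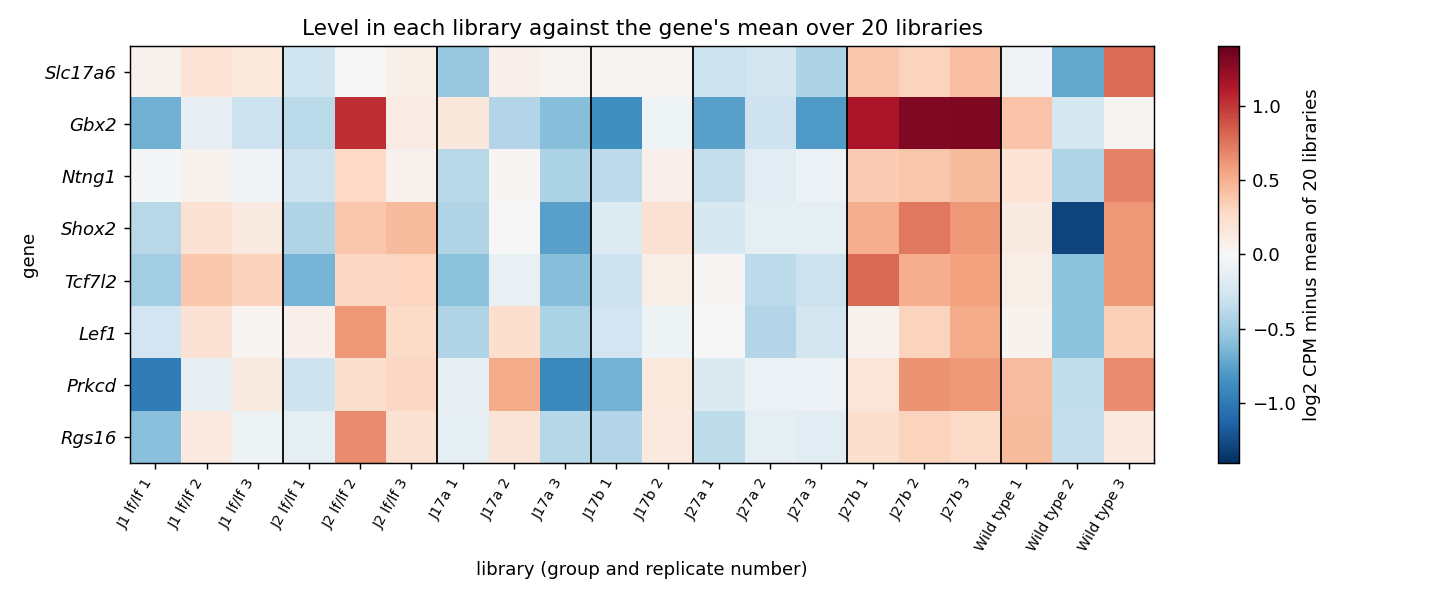
Log2 CPM minus the gene's mean over 20 libraries (color), with genes in rows and libraries in columns, divided by group. The J27b columns are above the mean for all 8 genes, Wild type replicate 2 is below it for all 8 and Wild type replicate 3 above it for all 8.

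Over the 20 libraries the Pearson correlation of log2 CPM between the genes, a description with no p, had a median of 0.749 over the 28 pairs and ran from 0.43 (Slc17a6 with Rgs16) to 0.889 (Shox2 with Tcf7l2). With the group means removed the median was 0.746 (0.0943 to 0.909), so the genes also varied together within groups. On the TPM scale the median was 0.75. Ntng1 followed the mean of the other 7 genes most closely (r = 0.907) and Slc17a6 least closely (r = 0.687). The libraries share their RNA and their depth across genes.

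Among 13045 genes with a mean log2 CPM of at least 1, the gene most like the mean profile of the 8 over the 20 libraries was Amotl1, an angiomotin-family gene (r = 0.926). Synpo2, an actin-binding protein gene, followed with r = 0.894, then Plekhg1, a guanine nucleotide exchange factor gene (0.843), and Slitrk6, a neuronal membrane protein gene (0.833). The LIM homeobox gene Lhx9 had r = 0.773, the receptor-modifying protein gene Ramp3 0.762 and Vav3, which encodes an exchange factor, 0.755. The potassium channel gene Kcnc2 and the nicotinic receptor gene Chrna4 had 0.744 each, and Adarb1, an RNA-editing enzyme gene, 0.739. With the group means removed these 10 correlations ran from 0.633 (Chrna4) to 0.92 (Amotl1).

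Taken singly, Slc17a6 was most like Rsrc1, Lhfpl3 and Polr2m (r = 0.893, 0.866 and 0.852), none of them among the 8. Gbx2 was most like Amotl1 (0.789), Rgs16 (0.783) and Fgfbp3 (0.756). Ntng1 was most like Shox2 (0.867), Tcf7l2 (0.852) and Polr2m (0.851). Shox2 and Tcf7l2 were nearest to each other (0.889), with Ntng1 (0.867 and 0.852) and Amotl1 (0.83 and 0.817) next for both. Lef1 was most like Shox2 (0.815), Rgs16 (0.786) and Ntng1 (0.77). Prkcd was most like Synpo2 (0.932), Ramp3 (0.915) and Amotl1 (0.906), and Rgs16 most like Amotl1 (0.862), Synpo2 (0.84) and Prkcd (0.834).

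A further list of 11 genes with thalamic expression was also drawn up with earlier results known. It holds 4 of the 10 genes most like the profile (Amotl1, Synpo2, Plekhg1 and Ramp3), so its likeness to the profile is no independent evidence. The median of the list had r = 0.81 with the mean of the 8 over the 20 libraries (rho = 0.829, and r = 0.793 without the 2 libraries farthest from the median). With group means removed r was 0.844. For J27a against J27b, 3 of the 11 genes were positive and 8 negative, with a median log2 fold change of -0.26, and edgeR called none of them. Of the most abundant genes of the list, Calb2, a calcium-binding protein gene, was at -0.11 (SE 0.215), Zic1, a zinc finger factor gene, at 0.28 (SE 0.269), and Cacna1g, a T-type calcium channel gene, at 0.19 (SE 0.128). Transcripts of the list genes can also come from other regions in the sample, such as the cerebellum, and the part of those regions was not tested. Amotl1 was at -0.42 (SE 0.127) and Synpo2 at -0.63 (SE 0.285). These 2 were the only list genes called with the J27 libraries alone in the fit (edgeR adjusted p = 0.00543 for Amotl1 and 0.0467 for Synpo2).

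The summed level of the 11 genes overlapped between the lines, at 795 to 983 CPM in J27a, 857 to 986 CPM in J27b and 852 to 1038 CPM in Wild type. The sums give most weight to genes with many counts, and median levels in the list ran from 3.82 TPM (Zfhx3) to 233 TPM (Calb2). J17b replicate 2 had the highest sum, 1082 CPM, and also the highest sum of the cerebellar genes described below, 1825 CPM. The list's median centred log2 CPM, which weighs the genes alike, ran from -0.07 to 0.09 in J27a, 0.06 to 0.37 in J27b and -0.16 to 0.18 in Wild type. Summed over the 8 genes, levels were 289 to 298 CPM in J27a, 449.8 to 484 CPM in J27b and 234 to 546 CPM in Wild type.

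**Figure D4:**
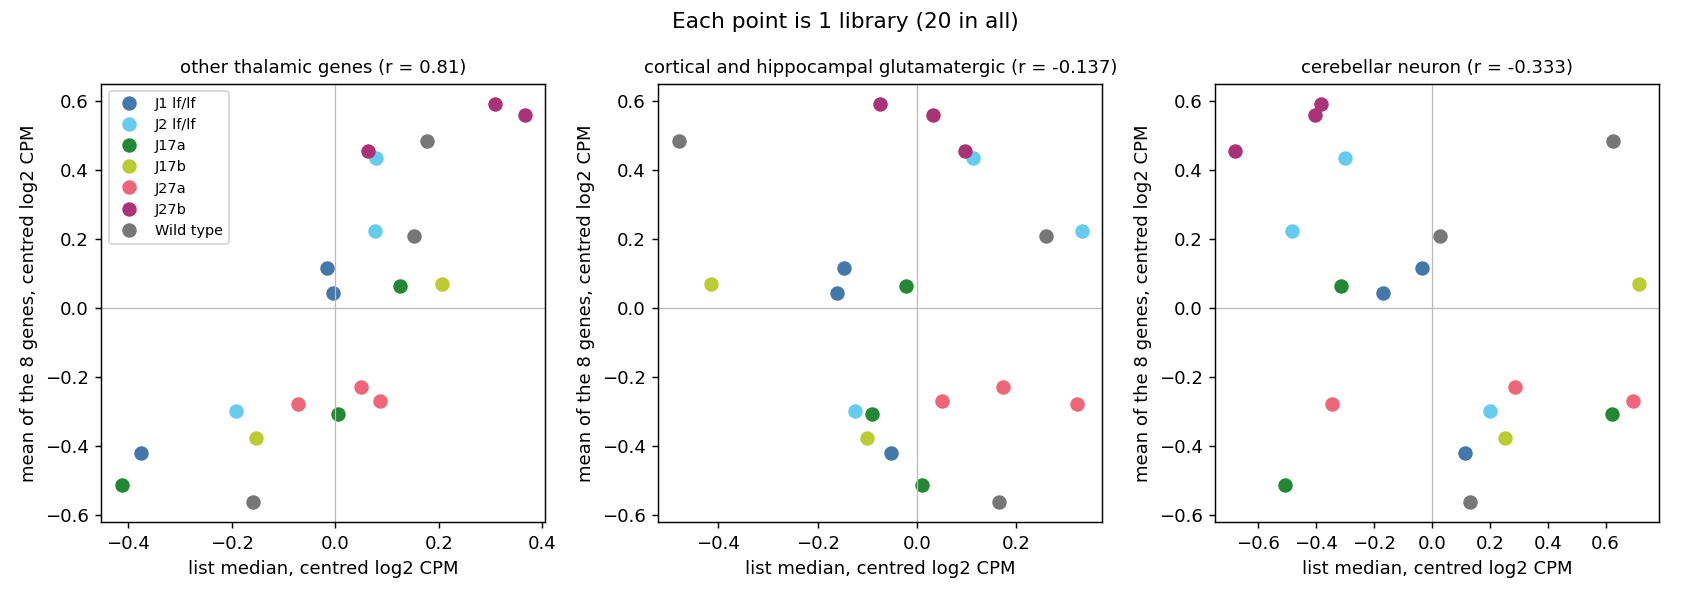
Mean centred log2 CPM of the 8 genes (vertical axes) against the median centred log2 CPM of other thalamic genes, cortical and hippocampal glutamatergic genes and cerebellar neuron genes (horizontal axes), a point per library, colored by group. The points of the thalamic panel rise together (r = 0.81), while r was -0.137 for the cortical list and -0.333 for the cerebellar list.

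Lists of other glutamatergic neurons were set beside the same profile, and the differences between lists were not tested. Habenular genes, from the region beside the thalamus that also uses VGLUT2, had r = 0.0745 with the 8 genes over the 20 libraries and 0.32 with group means removed. Hypothalamic and midbrain factors had r = 0.0847, and 0.0323 with group means removed. The values were -0.137 and -0.316 for cortical and hippocampal genes. For J27a over J27b, 3 of 7 habenular genes were positive (median -0.10, with Tac2, a tachykinin gene, at 0.05, SE 0.214). Of the 8 hypothalamic and midbrain factor genes 1 was positive (median -0.13, with Barhl1, a homeobox gene, at -0.16, SE 0.305). Cortical and hippocampal genes had 7 of 8 positive (median 0.20), with Slc17a7 at 0.18 (SE 0.184). None of these genes was called. Slc17a7, Glul, Slc1a2 and 4 further genes for loading and taking up glutamate had 6 of 7 positive and a median of 0.12.

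Tcf7l2 and Lef1 act with beta-catenin on Wnt target genes. Of 13 other genes of that pathway, 2 were positive and 11 negative for J27a over J27b, with a median of -0.11 and values from -0.33 (Nkd1, a Wnt inhibitor gene, SE 0.137) to 0.08 (Apc), and none was called. Of the most abundant, Ctnnb1, which encodes beta-catenin, was at -0.06 (SE 0.0588), Gsk3b, a kinase gene of its destruction complex, at 0.01 (SE 0.0664), and Apc, which encodes a scaffold of that complex, at 0.08 (SE 0.0955). The list had r = 0.0983 with the 8 genes over the 20 libraries, and -0.199 with group means removed. Summed levels overlapped, at 1436 to 1491 CPM in J27a, 1448 to 1490 CPM in J27b and 1419 to 1580 CPM in Wild type.

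Markers of other brain regions and cell types also differed between J27a and J27b, and their part in the difference of the 8 genes was not tested. All 7 cerebellar genes had positive values (median 0.73), with Pcp2 of Purkinje cells at 0.65 (SE 0.324), and summed levels of 871 to 1722 CPM in J27a, against 761 to 910 CPM in J27b. All 6 hindbrain and spinal genes had negative values (median -1.18), with Slc6a5, a glycine transporter gene, at -0.73 (SE 0.435), and sums of 16.9 to 20.2 CPM in J27a, against 22.2 to 45.5 CPM in J27b. All 6 choroid plexus genes had negative values (median -0.85), with Ttr, which encodes transthyretin, at -0.98 (SE 0.544), and sums of 422 to 464 CPM in J27a, against 465 to 1454 CPM in J27b. All 6 oligodendrocyte genes had negative values (median -0.27), with the myelin gene Mbp at -0.19 (SE 0.133), and sums of 5029 to 6196 CPM in J27a, against 6451 to 6821 CPM in J27b. None of these genes passed the adjusted threshold, and over the 20 libraries the lists' correlations with the 8 genes were -0.333 (cerebellar), -0.0747 (hindbrain), 0.36 (choroid plexus) and -0.0176 (oligodendrocyte). All 6 anterior pituitary genes had positive values (median 5.60), with sums of 1.44 to 664 CPM in J27a, against 1.34 to 2.58 CPM in J27b. Of the genes in these 5 lists, Hoxb6 was at 0 TPM in 6 of the 20 libraries, and the pituitary genes Gh, Prl, Tshb, Cga and Lhb in 4 to 11, and the others in none. Among the other lists, the correlation with the 8 genes was -0.212 for striatal projection neurons, -0.333 for GABAergic neurons and -0.0761 for astrocytes. It was -0.192 for microglia, 0.247 for endothelial cells and -0.0967 for newly formed oligodendrocytes. All 8 striatal genes had negative values for J27a over J27b (median -0.14), none of them called. Their sums overlapped, at 582 to 615 CPM in J27a and 582 to 824 CPM in J27b.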

How the data were processed

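Poly(A)-enriched, paired-end libraries of mouse brain RNA were sequenced on a NovaSeq6000, per the labels' protocols. The authors deposited estimated counts per gene and TPM values, made with cutadapt and RSEM on mm10, per the submitters' processing notes. Tool versions, gene annotation and strandedness were not given in the sources used here, so overlapping or antisense genes are uncertain. Of the estimated counts 4.11% were not whole, and all were rounded.

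The 8 genes and all gene lists were chosen with earlier results of these data known. Besides the 8, the text names list genes of highest level or past the threshold, the 10 genes most like the mean profile and the 3 most like each gene. Other list genes (Nkd1 and those called in the fit of the J27 lines alone) were named after their values were seen.

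Counts were tested with edgeR 4.0.16 in R 4.3.3 (TMM factors of 0.975 to 1.03, filterByExpr, robust glmQLFit and glmQLFTest, a mean per group over all 20 libraries, biological coefficient of variation 0.12). P-values were two-sided and adjusted by Benjamini-Hochberg over 16063 genes, with a threshold of 0.05. CPM use TMM factors, with a prior count of 2 for log2 CPM. Alternatives were DESeq2 1.42.0 (size factors, Wald test), no filter, fewer groups, a replicate block, omission of each library in turn, and limma 3.58.1 on log2 TPM with pseudocounts of 1 and 0.1. Leaving out the 3 libraries with the highest pituitary transcripts, which kept J2 lf/lf replicate 2, was chosen after seeing the data. No replicate pair differed by as little as sampling noise (lowest chi-square per degree of freedom 5.43). The highest values were 51.6 and 62.1, for Wild type replicate 3 with replicates 1 and 2 of its group. Wild type replicate 3 also had the lowest sum of cortical and hippocampal genes, 944.7 CPM, against 1375 CPM in the median library. Gene positions are from GENCODE M21.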

Additional observations from a re-analysis of the deposited data

How the results depend on the processing

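None of the 8 genes was called in any comparison other than J27a against J27b under the alternatives run. Of 880 log2 fold changes of the 8 genes under alternatives, 863 stayed within the spread between replicates and 805 kept their sign. That spread, each gene's SD within groups (0.284 to 0.482 on the log2 scale), was as large as many of the fold changes. Staying within it is thus a loose criterion, and 75 values turned sign. None of the 112 for J27a against J27b turned sign. All 8 genes had every J27a library below every J27b library, so leaving out a library could hardly turn one. In J1 lf/lf over Wild type, 26 of 112 turned. There the main values of Slc17a6, Tcf7l2, Shox2 and Lef1 lay between 0.0015 and 0.032, where small changes turn a sign. These counts thus do not show how firm either difference is.

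Counts of called genes depended on the test. With DESeq2 they were 17 for J1 lf/lf, 14 for J2 lf/lf, 1 for J17a, 17 for J17b, 5 for J27a and 7 for J27b, each against Wild type, 10 for J17a against J17b and 1 for J27a against J27b. Without the filter on low counts 1 gene was called for J27a against J27b. With only the groups compared in the fit, the counts were 1 for J1 lf/lf, 0 for J17b and 1 for J27a against Wild type, 2 for J17a against J17b and 125 for J27a against J27b. With limma on log2(TPM + 1) and on log2(TPM + 0.1) 1 gene was called for J1 lf/lf and 1 for J17b. Without the 3 libraries of highest pituitary transcripts the counts were 1 for J1 lf/lf and 2 for J17b, and the median of the 8 genes in J1 lf/lf against Wild type was -0.45. The cause was not tested.

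Leaving out 1 library at a time gave 1 to 15 called genes for J1 lf/lf, 1 to 7 for J2 lf/lf, 0 to 1 for J17a, 1 to 54 for J17b (54 without Wild type replicate 3), 0 to 3 for J27a and 0 to 2 for J27b against Wild type. It gave 0 to 2 for J17a against J17b and 0 for J27a against J27b. The median of the 8 genes ran from -0.41 to 0.16 in J1 lf/lf, -0.26 to 0.26 in J2 lf/lf, -0.57 to -0.16 in J17a, -0.47 to 0.01 in J17b, -0.61 to -0.05 in J27a and 0.042 to 0.633 in J27b against Wild type. It ran from -0.26 to 0.11 for J17a against J17b and -0.71 to -0.62 for J27a against J27b. The median correlation between the genes ran from 0.715 to 0.775.

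Deviations of libraries with the same replicate number correlated at -0.176 to 0.148, so the numbers do not pair the samples. With the replicate block the median for J27a against J27b was -0.64 with 0 called genes, and 1 gene was called for J17b against Wild type.

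None of the 8 genes was called in the edgeR fit of all groups. Gbx2 had as few as 44 counts in a library, which limits the precision of its level.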
